A study of Neurospora crassa with 4 samples.

Results

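The genes described here encode proteins of the mitochondrion of *Neurospora crassa*, a filamentous fungus, outside the respiratory complexes. They were taken as the rows of the deposited tables whose Broad gene description contains the letters "mitochondri" and none of a list of words that mark respiratory chain and ATP synthase subunits, tRNA synthetases and ligases, superoxide dismutases, splicing and nucleolar proteins and RNA polymerases. This gave 117 of 9691 rows, of which 16 were described as ribosomal, 7 as outer membrane import, 18 as inner membrane import and precursor processing, 28 as carriers or transporters and 48 as other mitochondrial proteins. The experiment compared a wild-type strain with Δ*czt-1*, a strain that lacks the transcription factor gene *czt-1* (NCU09974). Conidia were incubated for 6 h in minimal medium and then given staurosporine at 20 μM, an inhibitor of protein kinases that triggers cell death in this fungus, or DMSO, its solvent, for 1 h, and poly(A) RNA of the 4 cultures was sequenced. The groups were thus wild type with DMSO, wild type with staurosporine, Δ*czt-1* with DMSO and Δ*czt-1* with staurosporine, and 1 library stood for each of them. Questions addressed by the comparisons were which transcripts respond to the drug in the wild type and which of those responses differ without CZT-1.

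Most mitochondrial proteins are encoded in the nucleus, made on cytosolic ribosomes and carried into the organelle. Precursors are recognized by receptors of the TOM complex in the outer membrane, threaded through its channel and handed to the TIM23 complex, which feeds the matrix, or to the TIM22 complex, which inserts carrier proteins into the inner membrane, while the TOB complex inserts β-barrel proteins into the outer membrane. The carriers of the inner membrane exchange metabolites, nucleotides, phosphate and cofactors between the matrix and the cytosol, and the mitochondrial ribosome translates the few messages of the organelle's own genome. Several of these import components were first described in *N. crassa*.

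Every value below is an FPKM as deposited, a read count scaled by transcript length and library size, so levels of different genes can be set side by side. There were no replicates, which means that no value has an error and no difference has a replicate check, and no test was run. Changes are given as log2(FPKM + 1) in the first library minus that in the second, which shrinks those of genes at a few FPKM, and "rose" and "fell" are used only for changes of at least 2-fold on it, which is a rule of size. With 1 FPKM required in any library, 115 of the 117 members and 7896 of the 9691 rows passed. The members that did not pass were a triosephosphate isomerase (NCU10106) and a chaperone of the Bcs1 type (NCU03767), both under 1 FPKM in all 4 libraries. How many reads each library held is unknown here, and so is the depth behind a value.

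The libraries differed in other respects too. The level of *czt-1* was 19.7 and 384 FPKM in the wild type with DMSO and staurosporine, and 2.26 and 1.54 FPKM in Δ*czt-1*. The mating-type gene *mat A-1* was listed at 0 in both Δ*czt-1* libraries, and the pheromone precursor *mfa-1* was at 3.72 and 4.32 FPKM in the wild type but at 703 and 2367 FPKM in Δ*czt-1*. A difference between the strains can therefore not be told apart from other differences in their background. The conidial gene *con-10* was at 1.26 and 8.14 FPKM in the wild type and at 1.29 and 30.5 FPKM in Δ*czt-1*, *con-6* followed the same order with 1.94, 5.28, 1.91 and 15.2 FPKM, and the rodlet gene *eas* was at 20.5, 44.9, 44.0 and 95.7 FPKM. All 3 conidial genes were thus highest in Δ*czt-1* with staurosporine, and whether this has a part in the results below was not tested. In RNA from a whole culture, fewer cells of a stage and less of a transcript per cell cannot be told apart.

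Transcripts of the mitochondrial genes were mostly lower with staurosporine. In the wild type, 53 of the 115 members fell, against 14.0% of all rows, and 2 rose, against 12.8% of all rows. The median change of the members was −0.83, while the median of all rows was 0.11. In Δ*czt-1*, 65 of the 115 members fell, against 19.6% of all rows, and 7 rose, against 18.2% of all rows, with a median of −1.20 for the members and 0.00 for all rows. The staurosporine comparisons of the strains share no library, and 46 members fell in both, which is 86.8% of those that fell in the wild type and 70.8% of those in Δ*czt-1*. Among all rows, those that fell in both strains made up 69.1% of the falls in the wild type and 49.6% of those in Δ*czt-1*.

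The 5 groups did not respond alike. The medians in the wild type were −1.55 for the ribosome, −1.39 for outer membrane import and −1.57 for inner membrane import, against −0.75 for carriers and −0.29 for the other proteins. In Δ*czt-1* they were −1.84, −1.40, −1.82, −1.41 and −0.75 in the same order. All 16 ribosomal and all 7 outer membrane import genes were below 0 in both strains, and so were 17 of the 18 inner membrane import genes. Of the 28 carriers 20 were, and of the 46 other genes 28, against 32.1% of all rows. The carriers had the widest spread, from −2.97 to 3.94 in the wild type and from −4.55 to 1.86 in Δ*czt-1*.

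**Figure D1:**
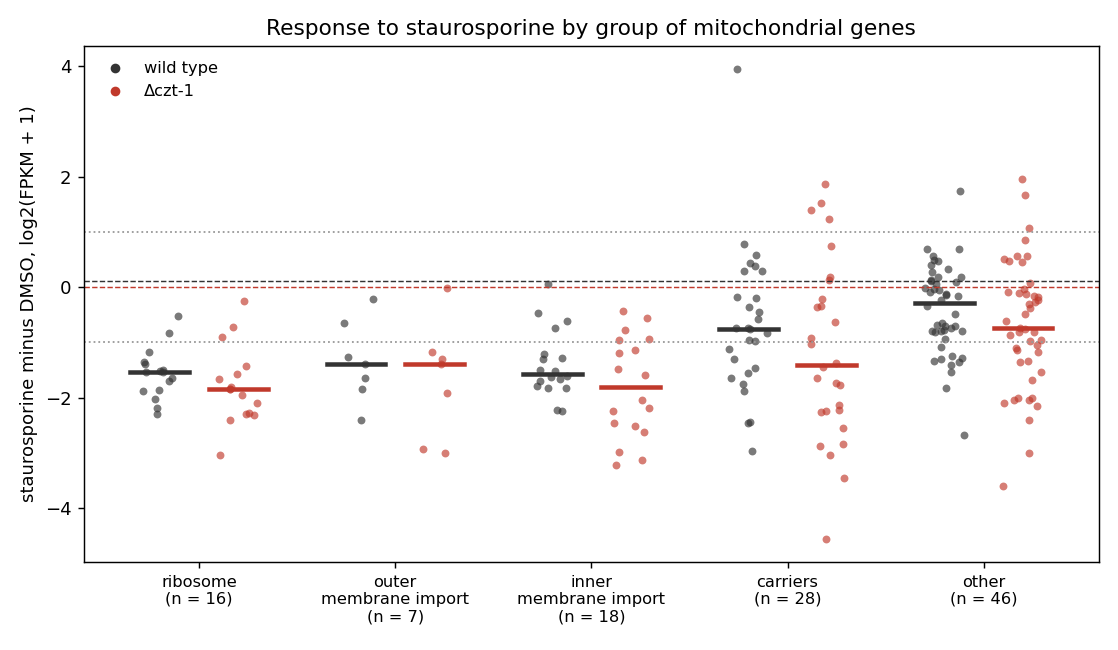
Change with staurosporine, as a difference of log2(FPKM + 1), of each member that passed the filter, by group, for the wild type (black) and Δczt-1 (red); each point is a gene, thick bars are medians, dotted lines mark 2-fold and dashed lines the median of all rows. The points of the ribosome and outer membrane import groups all sit below 0, with medians of −1.55 and −1.84 and of −1.39 and −1.40, while carriers reach from −4.55 to 3.94.

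The size of these changes depends on how libraries are scaled. When all libraries were brought to 1 common FPKM sum, the median of all rows moved to 0.85 in the wild type and to 0.60 in Δ*czt-1*, and 90.6% and 76.6% of the rows past 2-fold were then higher with staurosporine, against 47.6% and 48.2% as deposited. In that scaling 11 members (9.57%) fell and 18 (15.7%) rose in the wild type, against 4.47% and 43.1% of all rows. In Δ*czt-1*, 45 members (39.1%) fell and 14 (12.2%) rose, against 10.7% and 35.0% of all rows. The medians of the ribosome (−0.64 and −1.18), outer membrane import (−0.50 and −0.78) and inner membrane import (−0.68 and −1.16) remained below 0 in both strains, but those of carriers (0.10) and other proteins (0.60) turned above 0 in the wild type. Relative to the median row of the same scaling, every group was lower in both strains, from −0.25 for the other proteins to −1.53 for inner membrane import in the wild type, and from −0.71 for the other proteins to −1.78 for the ribosome in Δ*czt-1*. A common factor per library shifts nearly all rows alike, so this distance from the median row could hardly change and is no check of the result. A rank within a library does not depend on its scaling, and the median rank of the ribosomal genes among the 7896 rows went from the 91.9th percentile with DMSO to 81.7 with staurosporine in the wild type, and from 91.6 to 76.2 in Δ*czt-1*. The median rank of the inner membrane import genes went from 89.0 to 74.9 and from 88.1 to 67.1, that of outer membrane import from 90.4 to 81.9 and from 89.3 to 70.8, and that of the carriers from 63.1 to 51.9 and from 67.1 to 42.9. The ranks of these 4 groups were lower with staurosporine in either strain, as were those of the other proteins, with 69.6 and 59.2 for the wild type and 69.3 and 61.0 for Δ*czt-1*.

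**Figure D2:**
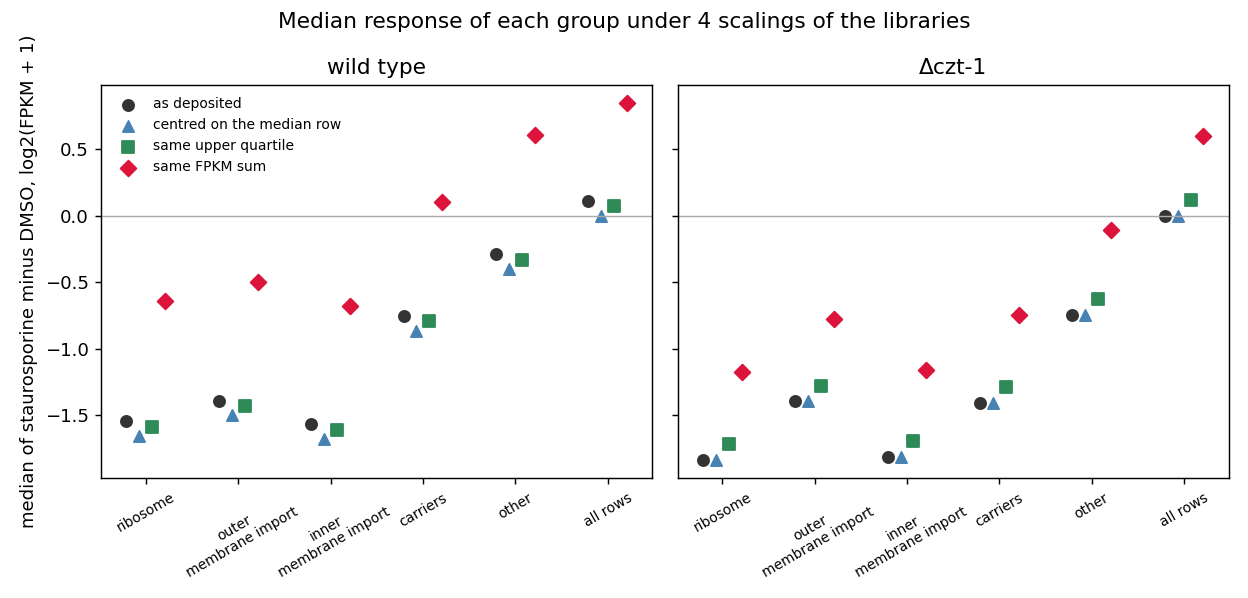
Median change with staurosporine, as a difference of log2(FPKM + 1), of each group and of all rows with an FPKM of at least 1, in the wild type (left) and Δczt-1 (right), with the libraries as deposited, centred on the median row, scaled to the same upper quartile and scaled to the same FPKM sum. Scaling to the same sum lifts every group, to 0.10 for carriers and 0.60 for other proteins in the wild type, and lifts all rows to 0.85. The ribosome and import groups stay below all rows throughout, which these scalings could hardly change because they shift nearly all rows alike.

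Genes of the mitochondrial ribosome were well expressed with DMSO, at a median of 177 FPKM in the wild type (from 69.4 to 611) and of 157 FPKM in Δ*czt-1* (from 77.0 to 401). With staurosporine the medians were 60.2 and 40.8 FPKM. Of the 16 genes, 14 fell in the wild type, against 14.0% of all rows, and 13 in Δ*czt-1*, against 19.6%, and none rose. The largest fall in both strains was that of the gene for DAP3 (NCU08120), a GTP-binding protein of the small subunit, whose level was 219 and 43.8 FPKM in the wild type and 156 and 18.0 FPKM in Δ*czt-1* with DMSO and staurosporine (changes of −2.30 and −3.05). Both staurosporine libraries lay far below both DMSO libraries, and the Δ*czt-1* library was the lowest.

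The gene for S12 (NCU06542), a protein of the decoding site of the small subunit, was the most expressed of the group in every library but Δ*czt-1* with staurosporine. It was at 611 and 149 FPKM in the wild type and at 401 and 134 FPKM in Δ*czt-1* (−2.03 and −1.58). L25 (NCU02804), of the large subunit, went from 401 to 86.7 FPKM and from 263 to 60.9 FPKM (−2.20 and −2.09). DAP3, S12 and L25 were also the 3 ribosomal genes that differed most between the strains with DMSO, by −0.49, −0.61 and −0.61, all lower in Δ*czt-1* and all within 2-fold. Large subunit genes took the next places in Δ*czt-1*. YmL35 (NCU01473) was at 161 and 54.5 FPKM in the wild type and at 143 and 26.3 FPKM in Δ*czt-1* (−1.55 and −2.40). A gene described as a large subunit protein (NCU05813) was at 198, 60.5, 157 and 30.9 FPKM in the same order of libraries (−1.70 and −2.31). Both had their lowest level in Δ*czt-1* with staurosporine.

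Some small subunit genes stood out by how little they moved. The MRP2 gene (NCU00564), whose protein corresponds to bacterial S14, was at 281 and 124 FPKM in the wild type but at 203 and 170 FPKM in Δ*czt-1*, so that it fell in the wild type (−1.17) and changed by −0.25 in Δ*czt-1*. S19 (NCU08728) was within 2-fold in both strains, at 182 and 102 FPKM and at 196 and 119 FPKM (−0.83 and −0.72). S4 (NCU10311) was as well, at 69.4 and 48.2 FPKM and at 77.0 and 40.8 FPKM (−0.52 and −0.90), and it had the lowest level of the group with DMSO. None of the 16 ribosomal genes differed in its response by 2-fold between the strains, where 17.5% of all rows were lower and 13.5% higher in Δ*czt-1*. By any amount, 9 of the 16 had the lower response in Δ*czt-1*, a share near that of all rows (4191 of 7896).

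A further 14 genes carry ribosomal names of the bacterial type (30S, 37S, 50S or 54S proteins) without the word that defined the members. In each strain 13 of the 14 fell, against 14.0% of all rows in the wild type and 19.6% in Δ*czt-1*, and none rose. Their medians were −1.66 and −1.97, close to those of the ribosomal members. In Δ*czt-1* the large subunit gene L5 (NCU04171) fell most, with 167 and 37.7 FPKM in the wild type and 133 and 9.29 FPKM in Δ*czt-1* (−2.12 and −3.70). A list of 5 genes, picked by name as partners of such a ribosome in translation or RNA handling, fell in both strains. Among them were elongation factor Tu (NCU03737), which delivers aminoacyl-tRNA, with 707, 153, 666 and 98.3 FPKM (−2.20 and −2.75), and elongation factor G 1 (NCU02955), which moves the ribosome along the message, with 122, 29.2, 161 and 26.3 FPKM (−2.02 and −2.56). Such genes outside the list did not all fall, as a member described as a translation initiation factor (NCU05270) was within 2-fold in both strains (−0.35 and −0.96). Among the 76 genes described as 40S or 60S ribosomal proteins, 71 fell in the wild type and 62 in Δ*czt-1*, against 14.0% and 19.6% of all rows. The descriptions of that list do not separate the ribosomes of the cytosol from those of the organelle, as 3 genes share the description L3 at levels of 105 (NCU08299), 192 (NCU06749) and 3615 FPKM (NCU06843) in the wild type with DMSO, so the list was not compared with the members.

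Among the receptors of the outer membrane translocase, *tom20* and *tom22* recognize presequences and *tom70* binds precursors with internal signals. *tom22* (NCU00431) had 257 and 70.5 FPKM in the wild type and 252 and 32.3 FPKM in Δ*czt-1* (−1.85 and −2.92). *tom20* (NCU06632) had 209 and 66.4 FPKM in the wild type and 217 and 26.2 FPKM in Δ*czt-1* (−1.64 and −3.00). Their levels with DMSO were close in the strains, and with staurosporine the Δ*czt-1* libraries were lowest for both. The response in Δ*czt-1* minus that in the wild type was −1.07 for *tom22* and −1.36 for *tom20*. *tom70* (NCU04245), at 150 and 62.0 FPKM and at 122 and 31.8 FPKM, fell in both strains as well (−1.26 and −1.91).

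The small subunit *tom5* (NCU02474), which helps precursors into the channel, went the other way between the strains. It was at 193 and 35.6 FPKM in the wild type and at 137 and 54.9 FPKM in Δ*czt-1*, the largest fall of the group in the wild type (−2.41) and a smaller one in Δ*czt-1* (−1.30), with a difference of 1.10. *tob55* (NCU05593), the β-barrel core of the TOB complex, was at 88.8, 33.2, 53.9 and 23.2 FPKM (−1.39 and −1.18) and had the largest difference of the group between the strains with DMSO (−0.71). Its partner *tob38* (NCU01401) was within 2-fold in the wild type and fell in Δ*czt-1*, at 20.4, 12.7, 22.3 and 7.84 FPKM (−0.65 and −1.40). *mim1* (NCU01101), which inserts helical outer membrane proteins, hardly moved, with 70.8, 61.0, 78.8 and 78.4 FPKM (−0.21 and −0.01). Only *mim1* among the 7 was within 2-fold in both strains.

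Of the TOM subunits whose descriptions lack the defining word, *tom40* (NCU01179), the channel itself, had 200 and 158 FPKM in the wild type and 219 and 65.5 FPKM in Δ*czt-1* (−0.34 and −1.73). The channel gene was thus within 2-fold in the wild type and fell in Δ*czt-1*, a difference of −1.39. The small subunit genes *tom6* (NCU05772) and *tom7* (NCU04181) fell in both strains, with changes of −1.99 and −1.75 and of −1.78 and −2.06.

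Within the TIM23 complex, *tim17* and *tim23* form the channel, *tim50* receives the precursor and *tim44* tethers the import motor. *tim44* (NCU03229) was at 97.3 and 39.1 FPKM in the wild type and at 108 and 11.5 FPKM in Δ*czt-1*, and its response of −1.29 and −3.13 had the largest difference between the strains of all import genes (−1.84). *tim17* (NCU05623) was at 186 and 56.5 FPKM and at 183 and 22.1 FPKM (−1.70 and −2.99), a difference of −1.29. *tim23* (NCU00371) was at 129 and 35.8 FPKM and at 109 and 16.9 FPKM (−1.82 and −2.62). As with the receptors, the strains had similar levels with DMSO and the lowest level of each was in Δ*czt-1* with staurosporine. *tim50* (NCU02943) followed the same order with 130, 41.9, 126 and 29.7 FPKM (−1.61 and −2.05).

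Other parts of the motor differed from *tim44*. The genes of its paired J-type subunits, *tim14* (NCU00075) and *un-4* (NCU05515, also called *tim16*), were among those that moved least in Δ*czt-1*. *tim14* was within 2-fold in both strains, at 91.0 and 58.8 FPKM and at 93.3 and 62.6 FPKM (−0.62 and −0.57). *un-4* fell in the wild type and was just within 2-fold in Δ*czt-1*, at 122 and 42.4 FPKM and at 108 and 55.2 FPKM (−1.51 and −0.96). The exchange factor GrpE (NCU01516), which recycles the motor's Hsp70, fell further in Δ*czt-1*, at 186 and 57.9 FPKM and at 178 and 30.3 FPKM (−1.66 and −2.51).

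The TIM22 complex and its chaperones handle carriers. *tim54* (NCU07295), a membrane subunit of that complex, was at 53.4 and 10.5 FPKM in the wild type and at 48.6 and 4.31 FPKM in Δ*czt-1*, the largest fall of the group in both strains (−2.25 and −3.22). The channel gene *tim22* (NCU03798) was at 58.0, 19.6, 49.3 and 9.67 FPKM (−1.52 and −2.24). The small chaperones of the intermembrane space, *tim9* and *tim10*, had the smaller fall in Δ*czt-1*. *tim9* (NCU00198) was the most expressed member of both import groups, at 473 and 136 FPKM and at 367 and 160 FPKM (−1.79 and −1.20). *tim10* (NCU00930) was at 206 and 57.2 FPKM and at 147 and 52.3 FPKM (−1.83 and −1.48), and it had the largest difference of the group between the strains with DMSO (−0.48).

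The disulfide relay of the intermembrane space traps the small Tim proteins by oxidation. The gene of its receptor Mia40 (NCU04945) was at 184 and 38.7 FPKM in the wild type and at 140 and 24.5 FPKM in Δ*czt-1* (−2.22 and −2.46). A FAD-linked sulfhydryl oxidase (NCU02396), the kind of enzyme that reoxidizes Mia40, was grouped with the other proteins by its description and gave a different picture. It was at 24.5 and 11.0 FPKM in the wild type, where it fell (−1.08), and at 21.9 and 33.0 FPKM in Δ*czt-1*, where it was higher with staurosporine (0.57). The responses of the oxidase gene thus had opposite signs in the strains, with a difference of 1.65.

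Peptidases that trim precursors moved less. The processing peptidase subunit *mpp* (NCU06270) fell in both strains, at 130, 53.0, 113 and 37.1 FPKM (−1.28 and −1.59). The intermediate peptidase (NCU02063) had 25.0, 10.2, 17.8 and 8.81 FPKM (−1.22 and −0.94), and the difference between its DMSO levels (−0.47) was the second largest of the group. Levels of the presequence protease gene (NCU01272), which degrades cleaved presequences, were 54.3, 39.2, 52.9 and 23.5 FPKM (−0.46 and −1.14). The only import gene above 0 in the wild type was *mmp37* (NCU04429), at 24.9 and 25.8 FPKM (0.05), and it was lower with staurosporine in Δ*czt-1*, at 27.8 and 15.8 FPKM (−0.77).

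**Figure D3:**
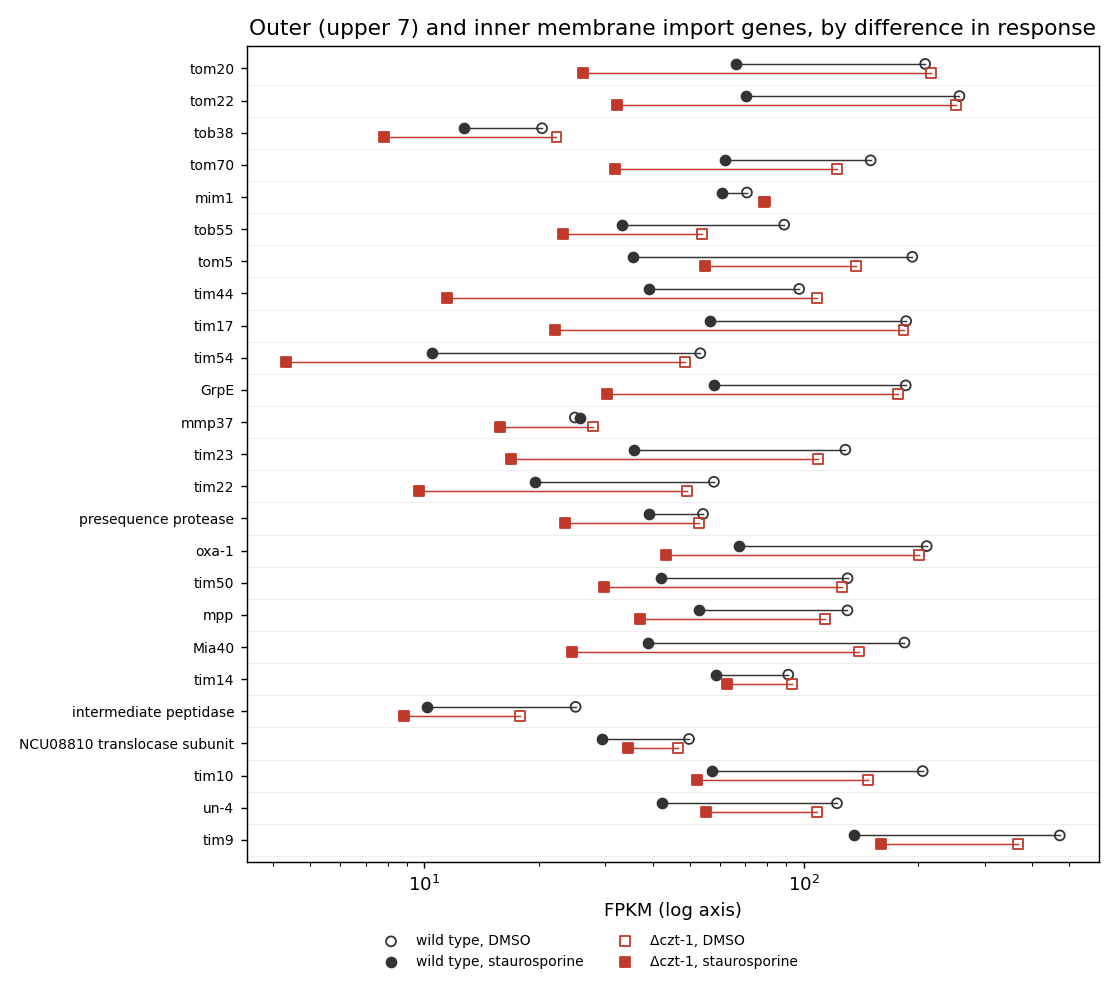
FPKM, on a log axis, of the 7 outer membrane import genes (upper rows) and the 18 inner membrane import genes in the 4 libraries, each set ordered by the difference between the responses of the strains; circles are wild type, squares Δczt-1, open symbols DMSO and filled symbols staurosporine. For most genes the DMSO symbols of the strains lie close together. The filled squares of tom20, tom22, tim44, tim17 and tim54 lie furthest to the left of their row, at 26.2, 32.3, 11.5, 22.1 and 4.31 FPKM, while those of tom5 and tim9 lie to the right of the filled circles.

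The carriers comprised 28 genes. In the wild type 10 fell (35.7%) and 1 rose (3.57%), against 14.0% and 12.8% of all rows. In Δ*czt-1* 16 fell (57.1%) and 4 rose (14.3%), against 19.6% and 18.2% of all rows. With DMSO the carriers had a median of 23.6 FPKM in the wild type and 29.3 FPKM in Δ*czt-1*, far below the ribosomal and import genes. With staurosporine their medians were 15.7 and 10.6 FPKM. The phosphate carrier (NCU05390), which brings in the phosphate for ATP synthesis, was the most expressed, at 1837 and 337 FPKM in the wild type and at 1145 and 243 FPKM in Δ*czt-1* (−2.44 and −2.23). The largest fall in the wild type was that of a carrier with no named substrate (NCU03561), with 461 and 57.9 FPKM in the wild type and 320 and 28.1 FPKM in Δ*czt-1* (−2.97 and −3.46). A cation transporter (NCU00227) was at 105, 18.1, 89.5 and 11.6 FPKM (−2.47 and −2.84). For these 3 genes both staurosporine libraries lay well below both DMSO libraries.

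The genome holds a second phosphate carrier gene (NCU07465), described as phosphate carrier 2, and the pair responded differently. Carrier 2 was at 18.2 and 6.81 FPKM in the wild type, where it fell (−1.30), and at 7.35 and 22.9 FPKM in Δ*czt-1*, where it rose (1.52). It was the only member past 2-fold in opposite directions in the strains, and the difference between its responses, 2.82, was the largest positive one of the members. With DMSO it was also the only member that fell below the wild type by 2-fold in Δ*czt-1* (−1.20). The first phosphate carrier, in contrast, had responses that differed by 0.22. With DMSO its level exceeded that of carrier 2 by far in either strain, and the gap was smallest in Δ*czt-1* with staurosporine, at 243 against 22.9 FPKM.

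The succinate/fumarate transporter (NCU08561), whose yeast counterpart exports fumarate in exchange for succinate during growth on acetate, was the only carrier that rose in both strains. It was at 4.49 and 83.5 FPKM in the wild type and at 9.24 and 36.3 FPKM in Δ*czt-1* (3.94 and 1.86), so it was the largest rise of all members in the wild type, and the difference between its responses was −2.08. Its level with staurosporine in Δ*czt-1* was below that of the wild type, and its level with DMSO was above it. A dicarboxylate transporter (NCU10732) was at 3.30, 4.28, 2.61 and 8.56 FPKM and rose in Δ*czt-1* (1.41), and a protein with a carrier domain (NCU02946) was at 2.63, 3.71, 2.30 and 6.72 FPKM and rose there too (1.23). Both had low levels in every library.

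Some carriers of organic acids fell in Δ*czt-1* alone. The oxaloacetate transporter (NCU07884) was at 21.5 and 15.4 FPKM in the wild type and at 45.7 and 5.32 FPKM in Δ*czt-1* (−0.46 and −2.89), a difference of −2.43, and its level with DMSO was higher in Δ*czt-1* (1.06). The tricarboxylate transporter (NCU05075), an exporter of citrate, was at 74.6, 37.7, 89.7 and 19.5 FPKM (−0.96 and −2.14). A dicarboxylate carrier (NCU01514) was at 10.9, 5.72, 11.8 and 1.69 FPKM (−0.83 and −2.26). All 3 were within 2-fold in the wild type and fell in Δ*czt-1*, with differences of −1.18 for the tricarboxylate and −1.43 for the dicarboxylate gene. The 2-oxodicarboxylate carrier (NCU04837) fell to a similar extent in both strains, at 327, 118, 337 and 129 FPKM (−1.46 and −1.38).

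The most extreme strain difference was that of a carrier described as RIM2 (NCU01916), in *Saccharomyces* an exchanger of pyrimidine nucleotides. It was at 11.0 and 9.53 FPKM in the wild type and at 28.4 and 0.251 FPKM in Δ*czt-1* (−0.18 and −4.55), a difference of −4.37. Of the 4 libraries, Δ*czt-1* with DMSO thus had its highest level and Δ*czt-1* with staurosporine its lowest, and the DMSO libraries alone differed by 1.30. Together with the oxaloacetate transporter it was the only member that was higher by 2-fold in Δ*czt-1* with DMSO. How many reads lie behind the value of 0.251 FPKM is not known.

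Carriers with unnamed substrates included a pair that fell in Δ*czt-1* far more than in the wild type. NCU08278 was at 65.3, 29.4, 86.3 and 9.64 FPKM (−1.12 and −3.04, a difference of −1.91). NCU01241 was at 59.2 and 72.4 FPKM in the wild type and at 96.4 and 34.9 FPKM in Δ*czt-1*, which gave opposite signs (0.28 and −1.44) and a difference of −1.72. The copper transporter gene (NCU09809), by contrast, fell in the wild type alone, at 61.8 and 16.0 FPKM against 33.5 and 21.4 FPKM in Δ*czt-1* (−1.88 and −0.62, a difference of 1.26). Of the 28 carriers, 7 had responses lower by at least 2-fold in Δ*czt-1* and 3 had responses higher by at least 2-fold, against 17.5% and 13.5% of all rows.

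**Figure D4:**
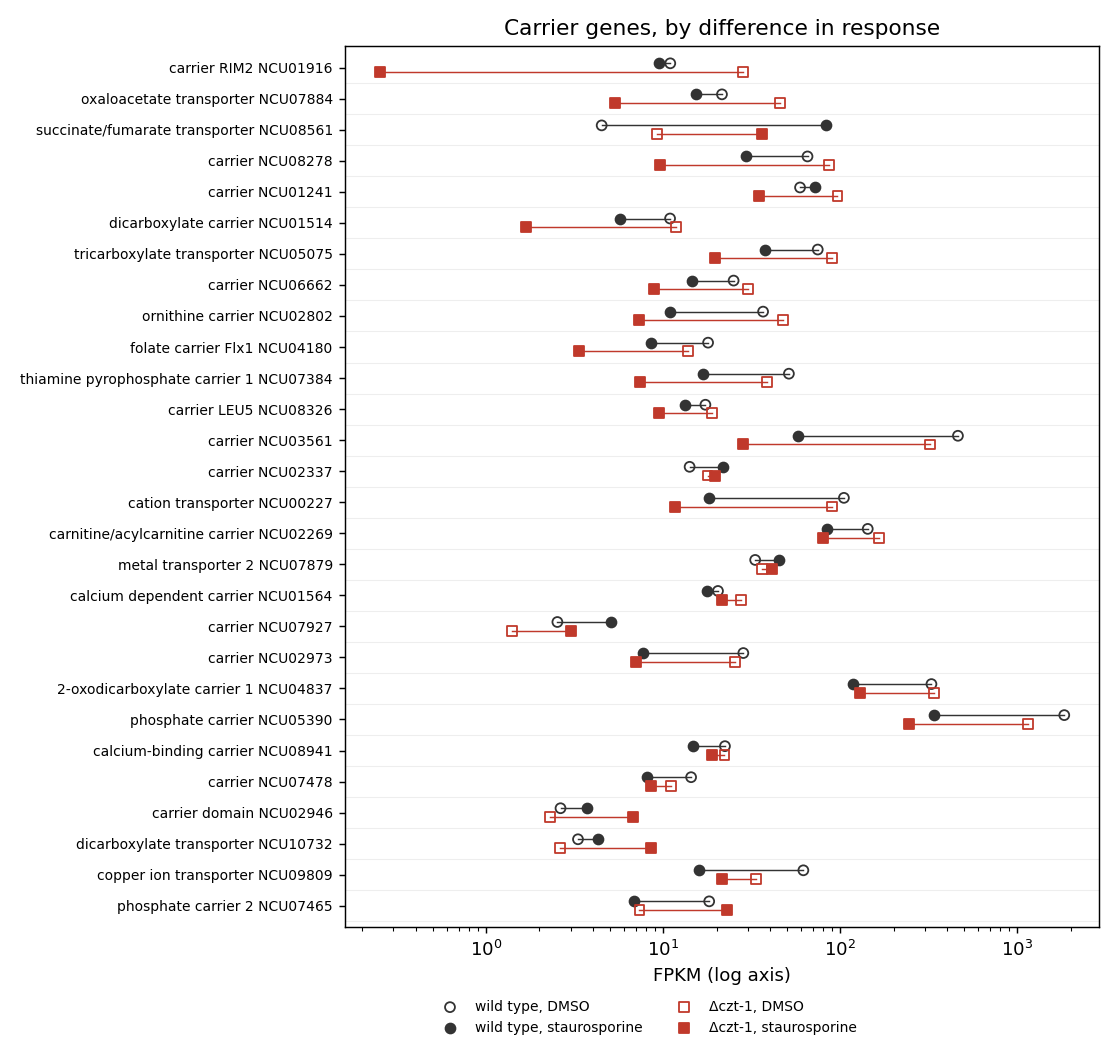
FPKM, on a log axis, of the 28 carrier genes in the 4 libraries, ordered from the most negative to the most positive difference between the responses of the strains; circles are wild type, squares Δczt-1, open symbols DMSO and filled symbols staurosporine. RIM2 in the top row runs from 28.4 to 0.251 FPKM in Δczt-1, the succinate/fumarate transporter rises in both strains, and phosphate carrier 2 in the bottom row falls from 18.2 to 6.81 FPKM in the wild type and rises from 7.35 to 22.9 FPKM in Δczt-1.

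ADP/ATP carriers, which export ATP from the matrix, have descriptions that lack the defining word. The main gene *aac* (NCU09477) was at 13310 and 3699 FPKM in the wild type and at 9807 and 4470 FPKM in Δ*czt-1* (−1.85 and −1.13). The second ADP/ATP carrier gene (NCU03989) was at 16.9 and 37.5 FPKM in the wild type, where it rose (1.10), and at 22.7 and 12.4 FPKM in Δ*czt-1* (−0.82). The minor ADP/ATP carrier and the minor phosphate carrier thus had responses of opposite sign to each other in either strain.

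Among the 46 other proteins that passed, 10 fell and 1 rose in the wild type, against 14.0% and 12.8% of all rows, and 17 fell and 3 rose in Δ*czt-1*, against 19.6% and 18.2%. The 3 genes of translation and RNA handling given next fell in both strains and further in Δ*czt-1*. The translation optimization protein (NCU00136), a tRNA modification factor in yeast, was at 21.1 and 8.00 FPKM in the wild type and at 26.3 and 1.25 FPKM in Δ*czt-1* (−1.30 and −3.60, a difference of −2.31). PET127 (NCU01304), which takes part in mRNA processing, was at 29.9, 11.2, 26.1 and 2.36 FPKM (−1.35 and −3.01). The RNA helicase Suv3 (NCU06371), part of the RNA-degrading machinery of the matrix, was at 33.1, 13.4, 42.4 and 7.23 FPKM (−1.24 and −2.40). In all 3 the lowest level was that of Δ*czt-1* with staurosporine.

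Other genes of translation varied. An initiation factor (NCU06103) was at 19.1, 10.6, 32.2 and 7.07 FPKM (−0.79 and −2.04), with a DMSO level higher in Δ*czt-1* by 0.72. Another gene of that description (NCU05270) was within 2-fold in both strains, at 93.7, 73.3, 114 and 57.9 FPKM (−0.35 and −0.96). Of the genes described as mitochondrial GTPases, NCU04149 was at 13.8, 9.61, 15.0 and 4.02 FPKM (−0.48 and −1.68) and NCU02123 at 16.8, 6.32, 8.06 and 3.20 FPKM (−1.28 and −1.11). Their responses differed by −1.20 and 0.18, and the second gene had the largest DMSO difference between the strains among the other proteins (−0.98). The peptidyl-tRNA hydrolase Pth2 (NCU01501) was at 66.9 and 69.4 FPKM in the wild type and at 51.2 and 25.6 FPKM in Δ*czt-1* (0.05 and −0.97).

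Assembly and shape factors varied. The chaperone BCS1 (NCU03231), which completes complex III, was at 35.1, 9.22, 30.2 and 6.03 FPKM and fell in both strains (−1.82 and −2.15), whereas another gene of that description (NCU03921) was at 6.59, 11.2, 6.50 and 14.7 FPKM and rose in Δ*czt-1* (1.07). *mmm-1* (NCU06193), a subunit of the tether between the endoplasmic reticulum and mitochondria, was at 16.2, 8.81, 15.1 and 3.01 FPKM (−0.81 and −2.01). A biogenesis protein, *pod-1* (NCU07955), was at 18.4, 10.8, 15.6 and 3.03 FPKM (−0.71 and −2.05). The magnesium transporter of the inner membrane (NCU09091) was at 29.3, 16.7, 28.4 and 6.28 FPKM (−0.78 and −2.01), and a DnaJ chaperone (NCU05196) at 34.4, 34.2, 37.4 and 16.1 FPKM (−0.01 and −1.17). These last 4 were within 2-fold in the wild type and fell in Δ*czt-1*, each with a difference of more than 1 on the log2 scale.

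Metabolic enzymes and stress genes made up the rest. The 2-methylisocitrate lyase gene (NCU02481), whose enzyme acts in propionate breakdown, rose in both strains, at 13.7 and 47.9 FPKM and at 19.5 and 79.0 FPKM (1.73 and 1.96). The pyruvate dehydrogenase kinase gene (NCU11744), whose enzyme switches off entry of pyruvate into the citric acid cycle, was at 21.6 and 35.6 FPKM in the wild type and at 25.2 and 81.9 FPKM in Δ*czt-1* (0.69 and 1.66), a rise in Δ*czt-1*. Citrate synthase, *cit-1* (NCU01692), was within 2-fold in both strains at 1613, 1570, 1290 and 922 FPKM (−0.04 and −0.48). A gene described as hypoxia responsive (NCU02623) had the largest fall of the other proteins in the wild type, at 167 and 25.3 FPKM and at 101 and 22.8 FPKM (−2.68 and −2.11). A second gene of that description (NCU02451) was at 146, 49.8, 107 and 60.7 FPKM (−1.53 and −0.81). YHM2 (NCU01689), described as a DNA replication protein and in *Saccharomyces* a carrier of citrate and oxoglutarate, was at 489 and 677 FPKM in the wild type and at 497 and 295 FPKM in Δ*czt-1* (0.47 and −0.75). Porin, *por* (NCU04304), the metabolite channel of the outer membrane, was the most expressed member with DMSO and was within 2-fold at 2366, 1361, 1785 and 1159 FPKM (−0.80 and −0.62).

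With DMSO few of these genes differed between the strains. Of the 115 members, 2 were higher by at least 2-fold in Δ*czt-1*, against 2.58% of all rows, and 1 was lower, against 2.36% of all rows. All 3 were the carriers named above, RIM2, the oxaloacetate transporter and phosphate carrier 2. The median differences were −0.16 for the ribosome, −0.03 for outer and −0.11 for inner membrane import, 0.08 for carriers and −0.05 for the other proteins, with 0.05 for all rows. Scaled to the same FPKM sum they turned positive (0.13, 0.26, 0.17, 0.35 and 0.22), as the median row moved to 0.29 and 78.2% of the rows past 2-fold were higher in Δ*czt-1*, against 52.3% as deposited.

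The staurosporine libraries of the strains stand in 2 tables that have no library in common. Each of these shares a DMSO library with the table of both strains, and the values of that library are identical in both. With staurosporine 27 of the 115 members were lower by at least 2-fold in Δ*czt-1*, against 12.2% of all rows, and 3 were higher, against 10.9% of all rows. The count of lower members was 13 with a pseudocount of 5, for which no share of all rows is given. It was 18 with the same upper quartile, against 10.2% of all rows. In that scaling 56.0% of the rows past 2-fold were higher, against 47.1% as deposited. The medians were −0.40 for the ribosome, −0.63 for outer and −0.63 for inner membrane import, −0.50 for carriers and −0.24 for the other proteins, with −0.03 for all rows. The genes higher in Δ*czt-1* were phosphate carrier 2 (1.62), the pyruvate dehydrogenase kinase (1.18) and the FAD-linked sulfhydryl oxidase, whose levels are given above. The lowest values were those of RIM2 (−3.07), the translation optimization gene and PET127 (−1.86).

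The response in Δ*czt-1* was lower than that in the wild type by at least 2-fold in 22 of the 115 members, against 17.5% of all rows, and higher in 5, against 13.5% of all rows. The share of lower members, 19.1%, was thus near that of all rows. The groups had medians of −0.28 for the ribosome, −0.65 and −0.50 for outer and inner membrane import, −0.41 for carriers and −0.32 for the other proteins, against −0.07 for all rows. This split depended on the scaling. With the same FPKM sum 35 members were lower and 3 higher, against 23.1% and 11.4% of all rows. With the same upper quartile 18 were lower and 7 higher, against 14.0% and 16.6% of all rows. Among all rows past 2-fold, 43.5% were higher as deposited, 33.1% with the same sum and 54.3% with the same upper quartile. Across the 115 members the responses of the strains ran together, with a Pearson r of 0.70 and a Spearman ρ of 0.72, against 0.62 and 0.56 over all 7896 rows. These are relations across genes, which are not independent replicates, and each strain's points share its libraries.

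**Figure D5:**
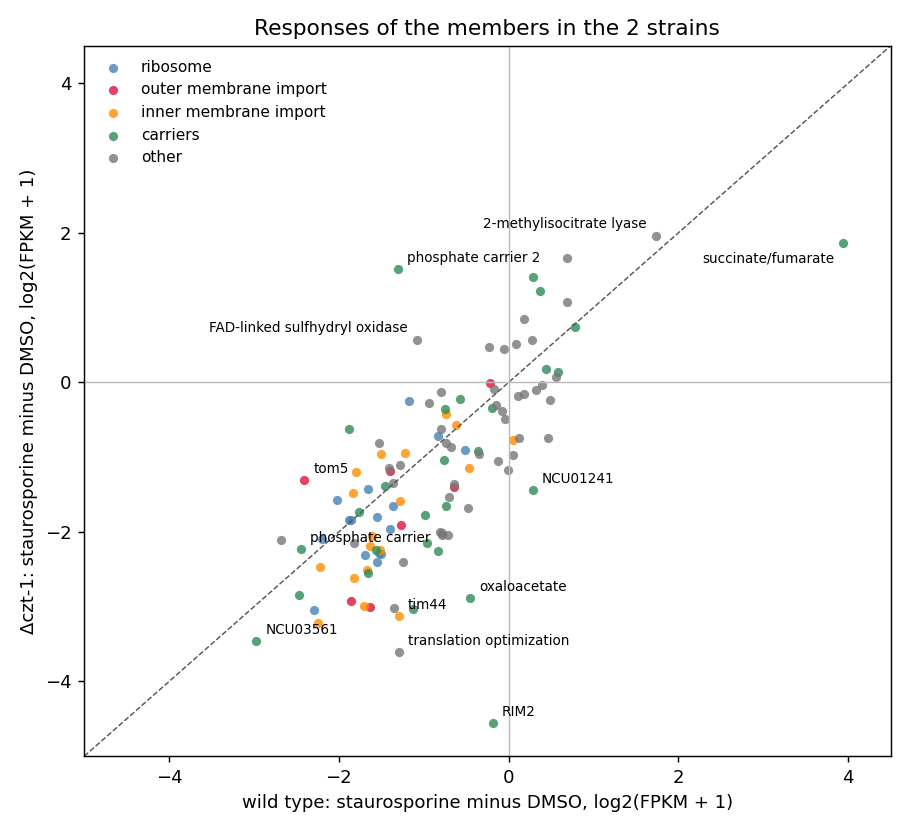
Change with staurosporine, as a difference of log2(FPKM + 1), in Δczt-1 against that in the wild type for the 115 members, coloured by group; the dashed line marks equal responses. Most points lie at the lower left (88 members, 76.5%, are below 0 in both strains, against 32.1% of all rows). RIM2 lies furthest below the line (−0.18 and −4.55) and phosphate carrier 2 furthest above it (−1.30 and 1.52).

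Genes with the smaller decrease in Δ*czt-1* included *tom5*, *tim9*, MRP2 and S12, with gene lengths of 908, 1154, 1102 and 1138 bases. Longer genes were also among them, such as *tob55* (2146 bases) and the first phosphate carrier (2324 bases). A gene length from the NC12 annotation was at hand for 112 of the 115 members. Across the 16 ribosomal genes the difference between the responses had a Spearman ρ of −0.67 with that length (r = −0.53), and across the 18 inner membrane import genes one of −0.52 (r = −0.36). Across the 28 carriers ρ was −0.00219 (r = −0.07), and across the 7517 rows of the whole tables with a known length −0.28 (r = −0.24). It was −0.25 (r = −0.19) across the 112 members and −0.23 (r = −0.19) across the other proteins. Longer ribosomal and inner membrane import genes thus tended to have the lower response in Δ*czt-1*. The members as a whole did not exceed all rows in this, and the carriers did not show it. The part of length in these differences was not tested. Pooled over groups, members with a higher level also had the lower response. Set against the DMSO level of the other strain, with which a response shares no library, the ρ was −0.59 for the wild type and −0.41 for Δ*czt-1* across the 115 members, against −0.30 and −0.44 across all rows. Within groups this was weaker for the ribosome (−0.41 and −0.04) and the other proteins (−0.33 and −0.21). For the carriers (−0.56 and −0.50) and inner membrane import (−0.58 and −0.36) it was near the pooled values.

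In the gene order of the NC12 annotation, in which 114 of the 117 members were found, 4 pairs of members were next to each other. On chromosome I, *tim44*, the ribosomal S18 gene (NCU03230) and BCS1 (NCU03231) followed each other, and all 3 fell in both strains, with S18 at 169, 45.9, 153 and 42.1 FPKM (−1.86 and −1.84). The response of S18 differed by 0.02 between the strains, whereas that of its neighbour *tim44* differed by −1.84. On chromosome V, *mim1*, which hardly moved, lay next to *oxa-1* (NCU01102), an insertase of the inner membrane, with 211, 67.3, 202 and 43.3 FPKM (−1.63 and −2.19). On chromosome II, *cit-1* and YHM2 were neighbours.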

How the data were processed

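Poly(A) RNA of 4 cultures was sequenced as single reads, with 1 library for each strain and treatment. According to the submitters' processing notes, TopHat2 2.0.4, Cufflinks 2.0.2 and Cuffdiff were used; their genome build (not given in the sources used here) and scaling option are unknown. Nor is the handling of reads that fit several genes, which leaves values of carriers with close relatives uncertain. The authors deposited 3 tables with an FPKM for each of a pair of libraries, and with fold changes, test statistics, p-values and q-values of their own comparisons, which were not used. The DMSO columns shared by tables differed in 0 rows.

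Members were found and grouped by words in the gene description. By hand, 3 genes were moved: porin and *iml-2* to the other proteins, and *mim1* to outer membrane import. Changes were differences of log2(FPKM + 1) over rows that reached an FPKM of 1, computed with Python 3.11.15, pandas 2.3.3 and scipy 1.17.1 and counted at 2-fold, by code tested on simulated data. The genes to name were, in each group, the 3 largest falls in each strain, every rise, every response that differed 2-fold between the strains where any library reached an FPKM of 10, and the 3 largest differences with DMSO. Other members and related genes were named to complete a complex or a comparison, after their values were seen. Members and lists were chosen with earlier results of these data known. RefSeq's NC12 annotation gave symbols, lengths and gene order. Tried as alternatives were 3 scalings, pseudocounts of 0.1 and 5, omission of the filter, a stricter one at an FPKM of 10, 1.5-fold and 3-fold thresholds and rows of single loci. The groups by words alone and members with an FPKM of at least 10 in each DMSO library were added after the data were seen.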

Additional observations from a re-analysis of the deposited data

Results flagged for a closer look

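The response to staurosporine had opposite signs in the strains, and differed by at least 2-fold, in 5 members that reached an FPKM of 10. With 1 library per condition, none of these differences was tested. How many of all rows meet the same rule is not given here, so the count of 5 cannot be set against them. Opposite signs of any size were found in 14 of the 115 members, a smaller share than among all rows (2367 of 7896). Phosphate carrier 2 (NCU07465) differed by 2.82 on the log2(FPKM + 1) scale, as it was lower with staurosporine in the wild type and higher in Δ*czt-1*. The FAD-linked sulfhydryl oxidase (NCU02396) differed by 1.65 in the same sense. The carrier NCU01241 (−1.72), the citrate and oxoglutarate carrier homolog YHM2 (NCU01689, −1.22) and the peptidyl-tRNA hydrolase Pth2 (NCU01501, −1.03) were higher with staurosporine in the wild type and lower in Δ*czt-1*. With the rows centred on their median, the response of Pth2 was below 0 in both strains (−0.06 and −0.97) and its difference was within 2-fold (−0.92). Among the 5 members only phosphate carrier 2 was past 2-fold in both strains.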

How the results depend on the processing

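Without replicates and without read numbers, neither replicate error nor counting error can be given, and genes at a few FPKM are the least certain. No paired analysis was possible because each condition had 1 library. The pseudocounts, the filters, the single loci, the groups by words alone and the members well expressed with DMSO left every group median inside the 95% interval of its order statistics over genes. That interval describes the spread over genes, which are not replicates. For the 7 outer membrane import genes it runs from the lowest to the highest value, so it cannot show that their median held. No member row joins several loci, so the single loci could not move any group median. The filters kept every ribosomal and import gene, so they could not move the medians of those groups. Among the settings other than the fold thresholds, scaling to the same FPKM sum moved the most results. In the wild type this scaling gave medians of 0.0294 for all members, −0.64 for the ribosome, −0.50 for outer and −0.68 for inner membrane import, 0.10 for carriers and 0.60 for other proteins. In Δ*czt-1* they were −0.56, −1.18, −0.78, −1.16, −0.75 and −0.11 in the same order. With DMSO it set the difference between the strains at 0.21 for all members, 0.13, 0.26 and 0.17 for the ribosome, outer and inner membrane import, 0.35 for carriers and 0.22 for other proteins, and it set the median difference between the responses at −0.58. Its counts were 18 members higher and 11 lower in the wild type, against 43.1% and 4.47% of all rows. In Δ*czt-1* 14 were higher, against 35.0% of all rows. With DMSO 0 were lower in the deletion strain, against 1.47% of all rows. For the difference between the responses 3 were higher and 35 lower, against 11.4% and 23.1% of all rows. A pseudocount of 5 left 4 members higher in Δ*czt-1*, 1 higher and 0 lower in the comparison of DMSO libraries, 13 lower between the strains with staurosporine and 12 lower for the difference between the responses. Between the strains with DMSO, 2 members were lower with a pseudocount of 0.1, with centring on the median row and with the same upper quartile. For the centring and the upper quartile, 2.63% and 2.47% of all rows were lower. A 1.5-fold threshold gave 5 members higher in the wild type, 5 higher and 8 lower between the strains with DMSO, 8 and 48 with staurosporine, and 14 and 45 for the difference between the responses. A 3-fold threshold gave 27 lower in the wild type, 3 higher in Δ*czt-1*, 0 and 0 in the comparison of DMSO libraries, 1 and 4 with staurosporine, and 2 and 8 for the difference between the responses. For the pseudocounts and the fold thresholds no share of all rows is given, so these counts describe the members alone and cannot be set against all rows. The cause of the shifts between settings, beyond the construction of each setting, was not tested.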
